A study of Mus musculus with 2 samples.

Results

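The cytochrome P450 genes of families 1 to 4 code for the haem enzymes that oxidise drugs, toxins, odorants, steroids and fatty acids. In the panel, 76 of 23930 targets belonged to them. The members were chosen by gene symbol alone (Cyp, a family digit from 1 to 4, a subfamily letter, a gene number and at most 1 closing letter), but the family itself was selected on levels in both libraries that were already known, so all values of these genes are a description without a test. Another 5 symbols of these families, among them 3 pseudogenes, lay outside the pattern and were not counted. All samples were wildtype mouse pups at postnatal day 3, from which RNA of the coronal, sagittal and lambdoid sutures, the fibrous joints of the skull roof, was read in 2 libraries of 1 group with the same batch number. No other allele, treatment or agent is named. Separate animals, or pools of animals, are stated for neither library, so the spread between them may be partly technical. Although the labelled cell type is suture stem cells, the protocol is one for whole tissue, with no sort.

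P450 enzymes sit in the membrane of the endoplasmic reticulum and take their electrons from P450 reductase, the product of Por. Families 1 to 3 hold most enzymes of foreign-compound metabolism and are best known from hepatocytes, while family 4 hydroxylates fatty acids and leukotrienes. A small set is known from the olfactory mucosa, where supporting and gland cells clear inhaled chemicals. Cyp2a5, Cyp2g1 and Cyp2f2 are the classical nasal forms, although Cyp2a5 and Cyp2f2 are also made in liver and Cyp2f2 in the club cells of the lung airways.

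Values are CPM, the reads of a gene's amplicon scaled to a common library total. Library 1 held 5663344 reads and library 2 held 15802610. A count of 0 allows up to 3 reads, which is 0.530 CPM in library 1 and 0.190 CPM in library 2. CPM of an amplicon is free of transcript length. Amplicons differ in efficiency, so levels of different genes are compared as reads and not as expression. The suture and osteoblast markers were all present, with 10 of 10 at 1 CPM or more in both libraries. In bulk tissue, fewer cells of a type and less RNA per cell cannot be told apart.

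The 76 genes together reached 144 CPM in the first library and 933 CPM in the second, a 6.47-fold difference with an exact 95% interval from 6.03 to 6.95. All intervals given here cover counting error of the reads only, since the panel reads carry no molecular identifiers. The 4 nasal forms (Cyp2a4, Cyp2a5, Cyp2f2 and Cyp2g1) made up most of this difference. Their sums were 10.6 and 690.1 CPM, and they held 7.34% of the family's reads in library 1 (exact interval 5.65 to 9.35) and 74.0% in library 2 (73.3 to 74.7). The other 72 genes summed to 134 and 243 CPM, a 1.82-fold difference (1.68 to 1.97).

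**Figure D1:**
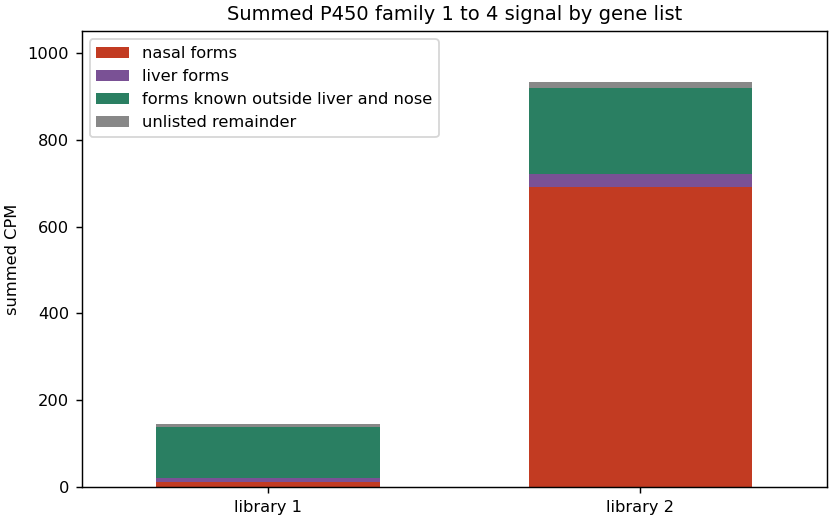
Summed CPM (y axis) of the P450 genes of families 1 to 4 in each library, stacked by gene list. The bar of library 1 reaches 144 CPM and is mostly forms known outside liver and nose, and that of library 2 reaches 933 CPM and is mostly the 4 nasal forms.

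A level of 1 CPM or more in both was reached by 20 of 76 members (26.3%), against 55.0% of all targets. Another 3 members reached it in library 1 only and 5 in library 2 only, while 48 stayed below it in both. No read was found in either library for 17 members, among them Cyp2c38, Cyp2c54, Cyp3a44 and Cyp4a31. Family 4 had the largest detected share with 8 of 19, followed by family 1 with 1 of 3 and family 2 with 11 of 47, while family 3 had 0 of 7. The median of the members' mean levels was 0.250 CPM, beside 3.29 CPM over all targets. The members nearest to the limit of a mean of 1 CPM were Cyp2r1, a vitamin D hydroxylase, at 0.706 and 1.33 CPM, and on the other side Cyp4f14, a leukotriene hydroxylase of liver, at 0.883 and 0.506 CPM. For comparison, 6 of the 19 P450 genes of families 5 and above reached 1 CPM in both libraries.

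**Figure D2:**
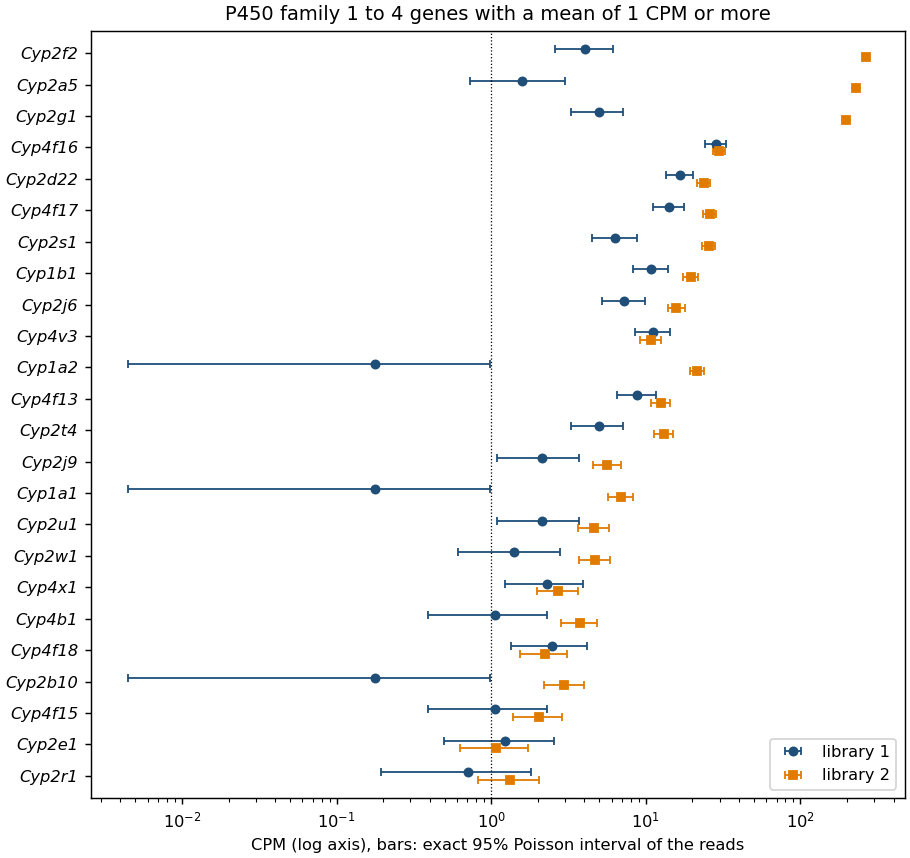
Level in CPM (log x axis) of the 24 members with a mean of 1 CPM or more, in library 1 (circles) and library 2 (squares), with exact 95% Poisson intervals of the reads as bars and a dotted line at 1 CPM. Cyp2f2, Cyp2a5 and Cyp2g1 lead by their values in library 2 and stand at 1.59 to 4.94 CPM in library 1, while Cyp4f16 stands at 28.3 and 29.6 CPM.

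Of the 4 nasal forms, Cyp2f2, Cyp2a5 and Cyp2g1 were the highest members by mean level, and each was far higher in library 2. Cyp2f2, which activates naphthalene in airway cells, stood at 4.06 CPM in library 1 (23 reads) and 264 CPM in library 2 (4166 reads), 134 CPM ± 184 (SD, n = 2). Its level was 64.9-fold higher in library 2, with an interval from 43.2 to 103. Cyp2a5, the coumarin and nicotine hydroxylase, stood at 1.59 CPM (9 reads) and 230.0 CPM (3634 reads), a 145-fold difference (76.1 to 317). Cyp2g1, a form known almost only from olfactory mucosa, stood at 4.94 CPM (28 reads) and 196 CPM (3102 reads), a 39.7-fold difference (27.4 to 59.8). The SD of each exceeded its mean, so the mean describes neither library. All 3 were nevertheless above the limit of 3 reads in library 1. By fold toward library 2 among the 14097 targets with a mean of 1 CPM or more, Cyp2a5 ranked 17, Cyp2f2 ranked 29 and Cyp2g1 ranked 50.

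Between the libraries, the balance of the 3 forms differed beyond counting error for Cyp2a5 against Cyp2g1 only. In library 2 their reads were of the same order, with 0.872 reads of Cyp2a5 (0.834 to 0.912) and 0.745 reads of Cyp2g1 (0.711 to 0.780) for each read of Cyp2f2. In library 1 there were 0.391 reads of Cyp2a5 (0.159 to 0.878) and 1.22 reads of Cyp2g1 (0.676 to 2.21) for each read of Cyp2f2. Each amplicon is compared with itself across libraries here, so amplicon efficiency is shared by both ratios. For Cyp2a5 over Cyp2f2, the interval in library 1 reaches into that of library 2, and for Cyp2g1 over Cyp2f2 it spans it. For Cyp2a5 over Cyp2g1 the intervals do not overlap, at 0.321 (0.133 to 0.701) in library 1 and 1.17 (1.12 to 1.23) in library 2. The ratio in library 1 rests on 9 and 28 reads.

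The fourth nasal form, Cyp2a4, a testosterone hydroxylase, did not follow. It had no read in library 1 and 3 reads in library 2, or 0.190 CPM, which is at the limit that a count of 0 allows. Cyp2a5 reads outnumbered Cyp2a4 reads 1211 to 1 in library 2, with an interval from 414 to 5877. The proteins of both genes, translated from GENCODE transcripts, matched at 482 of 494 aligned residues (97.6%). With such near-identical copies, reads of 1 gene may be counted for the other, and whether the amplicons tell them apart was not tested. Cyp2a5 and Cyp2g1 are less alike (58.1%), as are Cyp2f2 and Cyp2g1 (53.6%). The other pairs or groups of near-identical members, at 95% or more, were Cyp4a12a with Cyp4a12b, Cyp2c67 with Cyp2c68 and Cyp2c69, and Cyp3a25 with Cyp3a59. All of these were below 1 CPM in both libraries, and their values are uncertain for the same reason.

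To show how alike the windows before the starts of the high and the low copy are, the 250 bases before the transcript start are given for Cyp2a5 and Cyp2a4, and beside them for Cyp2f2, the member with the most reads in library 2, and Cyp1a2, the liver form with the most. For Cyp2g1 no window is shown. The sequences are RefSeq's, build GRCm38.p6, which has the coordinates of mm10, and are written 5′ to 3′ on the strand of the gene. Capitals mark matches on either strand to TATAAA, the TATA box, to TTGGCA, part of the site of nuclear factor I, and to GCGTG, the core of the site of the aryl hydrocarbon receptor. No 2 of these matches overlap here. Cyp2a5 is at chr7:26835089-26835338 and Cyp2a4 at chr7:26306942-26307191, both on the plus strand. Cyp2f2 is at chr7:27119705-27119954 on the plus strand and Cyp1a2 at chr9:57683656-57683905 on the minus strand.
Cyp2a5: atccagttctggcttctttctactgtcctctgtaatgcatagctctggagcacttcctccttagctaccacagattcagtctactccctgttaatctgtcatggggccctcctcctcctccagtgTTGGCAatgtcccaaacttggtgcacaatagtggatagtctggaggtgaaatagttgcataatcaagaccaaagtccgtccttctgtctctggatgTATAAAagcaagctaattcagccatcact
Cyp2a4: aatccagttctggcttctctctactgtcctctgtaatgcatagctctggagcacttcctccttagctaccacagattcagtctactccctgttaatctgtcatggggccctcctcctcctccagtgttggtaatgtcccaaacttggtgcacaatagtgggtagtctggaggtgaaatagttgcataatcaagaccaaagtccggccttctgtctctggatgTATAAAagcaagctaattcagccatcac
Cyp2f2: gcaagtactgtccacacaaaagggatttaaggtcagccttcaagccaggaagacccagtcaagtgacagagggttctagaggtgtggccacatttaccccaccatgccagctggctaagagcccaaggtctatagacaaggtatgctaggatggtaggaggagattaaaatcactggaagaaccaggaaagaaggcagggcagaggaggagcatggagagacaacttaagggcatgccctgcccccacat
Cyp1a2: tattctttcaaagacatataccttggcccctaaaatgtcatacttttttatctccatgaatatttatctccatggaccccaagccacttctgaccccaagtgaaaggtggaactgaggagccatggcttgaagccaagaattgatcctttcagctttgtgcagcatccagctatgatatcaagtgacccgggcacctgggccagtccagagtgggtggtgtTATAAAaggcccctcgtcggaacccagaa

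Of the 249 aligned bases of the Cyp2a5 and Cyp2a4 windows, 245 were identical. TATAAA was found once in the windows of Cyp2a5, Cyp2a4 and Cyp1a2 and not in that of Cyp2f2, against 12.4% of all 32851 windows in the table. TTGGCA was found once in the window of Cyp2a5 and not in that of Cyp2a4, against 12.3% of all windows. GCGTG was in none of the 4 windows, against 28.2% of all. Across the 68 windows of the 61 members in the table, 23 held TATAAA, 18 held TTGGCA and 13 held GCGTG. A match is a string of letters and not a bound site, and no match says only that these letters are not in this stretch.

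Liver forms were close to the limit of detection. Of 38 listed genes, 34 had a target used here. Of these, 2, Cyp2e1 and Cyp4f15, reached 1 CPM in both libraries, against 55.0% of all targets. Cyp2e1, the ethanol oxidase and 1 of the most abundant P450 enzymes of liver, stood at 1.24 and 1.08 CPM from 7 and 17 reads. Cyp4f15, a fatty acid hydroxylase, stood at 1.06 and 2.02 CPM from 6 and 32 reads. The median liver form had 0.177 CPM in library 1 and 0.0630 CPM in library 2, which is 1 read in each. For each read of Cyp2e1 there were 1.29 reads of Cyp2a5 in library 1 (0.426 to 4.06) and 214 in library 2 (133 to 367).

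The summed liver forms stood at 10.8 and 31.1 CPM, and most of the sum in library 2 was Cyp1a2. Nasal forms had 0.984 reads for each read of a liver form in library 1 (0.677 to 1.43) and 22.2 in library 2 (20.2 to 24.3). Cyp1a2, the caffeine oxidase of liver, is also known from olfactory mucosa. It had 1 read in library 1 (0.177 CPM) and 340 in library 2 (21.5 CPM), a 122-fold difference with an interval from 21.7 to 4827. Cyp2b10, the phenobarbital-induced form, had 1 read in library 1 and 47 in library 2 (2.97 CPM), a 16.8-fold difference (2.88 to 679). These 2 genes were singled out after their values were seen.

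The full list of 34 was 2.89-fold higher in library 2 (2.21 to 3.84). Without Cyp1a2 and Cyp2b10, a removal made on their values that supports no direction for liver forms, the sums were 10.4 and 6.64 CPM from 59 and 105 reads. Of these 32 genes, 16 had the higher CPM in library 1, 8 in library 2 and 8 had no read. On the side of library 1, Cyp2c39, Cyp2c70, Cyp2d10, Cyp2d26, Cyp3a11 and Cyp4a14 had 1 read there. On the other side, Cyp2c69 and Cyp2d11 rested on 1 read in library 2. A single read weighs more in the shallower library 1, and no such count over all targets is given. The split therefore shows no direction for liver forms. The Cyp2c subfamily, epoxygenases and drug oxidases of liver, had 25 reads over its 14 members in library 1 and 10 in library 2. Its summed level was 4.42 and 0.631 CPM, 6.98-fold higher in library 1 (3.24 to 16.3). The subfamily was picked out after its values were seen, and 0 of its members had a mean of 1 CPM or more. Whether other subfamilies shared this cannot be told from so few reads. Cyp4a was 1.29-fold higher in library 1 (0.401 to 3.63), an interval that overlaps that of Cyp2c. Cyp3a was 1.25-fold higher in library 2 (0.557 to 3.18), but 21 of its 28 reads there were of Cyp3a13, an intestinal form. For both, 1 lay inside the interval. Cyp2b was 5.02-fold higher in library 2 (1.85 to 19.1), where 47 of its 56 reads were of Cyp2b10. Cyp2c37 had 6 reads against 1, Cyp2c50 had 6 against 5 and Cyp2c29 had 5 against 0, in libraries of unequal depth. Cyp3a16, a form of perinatal mouse liver, also had 6 reads in library 1 (1.06 CPM) and 3 in library 2 (0.190 CPM), and Cyp3a11, the main adult form, had 1 and 0.

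The 18 forms known outside liver and nose held 80.4% of the family's reads in library 1 and 21.1% in library 2. The name of this list does not mean that its genes are absent from liver or nose. They summed to 116 and 197 CPM, 1.70-fold higher in library 2 (1.56 to 1.85). A level of 1 CPM in both libraries was reached by 14 of 18, against 55.0% of all targets. Of the 20 members on no list, 1 reached it. This list, like the others, was chosen with earlier results of these data known, so its share is a description. Of the 16 with a mean of 1 CPM or more, 7 were 2-fold or more higher in library 2, against 14.2% of such targets. Cyp4f16, of the fatty acid hydroxylase subfamily Cyp4f, was the highest member of all in library 1 and stood at 28.3 CPM there (160 reads) and 29.6 CPM in library 2 (468 reads), 28.9 CPM ± 0.964 (SD, n = 2). Its fold of 1.05 had an interval from 0.874 to 1.26. Cyp2a5 had 0.0562 reads for each read of Cyp4f16 in library 1 (0.0253 to 0.109) and 7.76 in library 2 (7.05 to 8.57).

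Within the same subfamily Cyp4f17 stood at 14.1 and 25.9 CPM and Cyp4f13 at 8.83 and 12.5 CPM. Cyp4f18, which inactivates leukotrienes in neutrophils, stood at 2.47 and 2.22 CPM, a fold of 0.896 (0.470 to 1.80). Neutrophil markers, led by Ngp, Ltf and S100a9, summed to 1130 and 598 CPM. Of these, 7 of 8 were 2-fold or more higher in library 1, against 9.80% of all targets compared. Ltf, which is also on the gland list, was higher in library 2. The part of neutrophils in the Cyp4f18 reads was not tested. Cyp4v3, a fatty acid hydroxylase whose human counterpart is mutated in a retinal dystrophy, stood at 11.1 and 10.8 CPM, a fold of 0.967 (0.720 to 1.31). Cyp4x1, a form known from brain, stood at 2.30 and 2.72 CPM. These levels differed by less than 2-fold between the libraries.

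Cyp1b1, a family 1 enzyme of mesenchymal and other cells outside the liver that oxidises oestradiol and retinol, stood at 10.8 CPM (61 reads) and 19.5 CPM (308 reads), 1.81-fold higher in library 2 (1.37 to 2.42). Its relative Cyp1a1, which oxidises polycyclic aromatic compounds, had 1 read in library 1 and 109 in library 2 (6.90 CPM), a 39.1-fold difference (6.87 to 1557). All of family 1 are known targets of the aryl hydrocarbon receptor. The receptor gene Ahr stood at 9.54 and 13.2 CPM, a fold of 1.39 (1.02 to 1.91), and Ahrr, its repressor and also a target, at 1.06 and 1.58 CPM. The fold intervals of Cyp1a1 and Cyp1a2 lie above that of Cyp1b1. Both genes had 1 read in library 1 and passed the limit on the mean only through library 2. The part of the receptor in the family 1 values was not tested.

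Cyp2d22, of the subfamily that in humans holds the drug oxidase CYP2D6, stood at 16.6 and 23.6 CPM, a fold of 1.42 (1.13 to 1.80). The arachidonic acid epoxygenases Cyp2j6 and Cyp2j9 stood at 7.24 and 15.8 CPM and at 2.12 and 5.63 CPM, 2.18-fold and 2.66-fold higher in library 2. Cyp2s1, an enzyme of airway, skin and gut epithelia, stood at 6.36 and 25.4 CPM, 4.0-fold higher in library 2 (2.84 to 5.80). Cyp4b1, known from lung and kidney, stood at 1.06 and 3.73 CPM, and Cyp2w1, in humans a form of fetal gut, at 1.41 and 4.68 CPM. Cyp2u1, a long-chain fatty acid hydroxylase, stood at 2.12 and 4.62 CPM. Cyp3a13, an intestinal form, had no read in library 1 and 21 reads in library 2 (1.33 CPM). Its fold was 2.51 when library 1 is set at 3 reads, and the exact interval of the fold began at 1.87. Cyp2t4, the highest member on no list, stood at 4.94 and 13.1 CPM.

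Among the 24 members with a mean of 1 CPM or more, 13 were 2-fold or more higher in library 2, none were 2-fold or more higher in library 1 and 11 differed by less. Over the 14097 targets the shares were 14.2% higher in library 2 and 9.80% higher in library 1. The median difference on the log2 scale, library 2 over library 1, was 1.12 for these members and 0.08 for all targets compared. The 6 highest folds, picked out after the values were seen, were those of Cyp2a5, Cyp1a2, Cyp2f2, Cyp2g1, Cyp1a1 and Cyp2b10, between 16.8 and 145, and the other 18 lay between 0.871 and 4.0. Cyp1a2, Cyp1a1 and Cyp2b10 had 1 read each in library 1 and passed the limit on the mean only through library 2, and the interval of Cyp2b10 (2.88 to 679) overlaps that of Cyp2s1 (2.84 to 5.80). The 6 genes held 7.71% of the family's reads in library 1 and 77.3% in library 2. The other 70 members together were 1.59-fold higher in library 2 (1.47 to 1.72). With an exact two-sided binomial test of the recovered reads, adjusted over all 23930 targets, 17 members were called higher in library 2 and 2, Cyp2c29 and Cyp2c37, were called higher in library 1. This test called 19.7% of all targets higher in library 2 and 16.2% higher in library 1. It compares 2 libraries and not conditions, and the members were selected with these differences known.

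**Figure D3:**
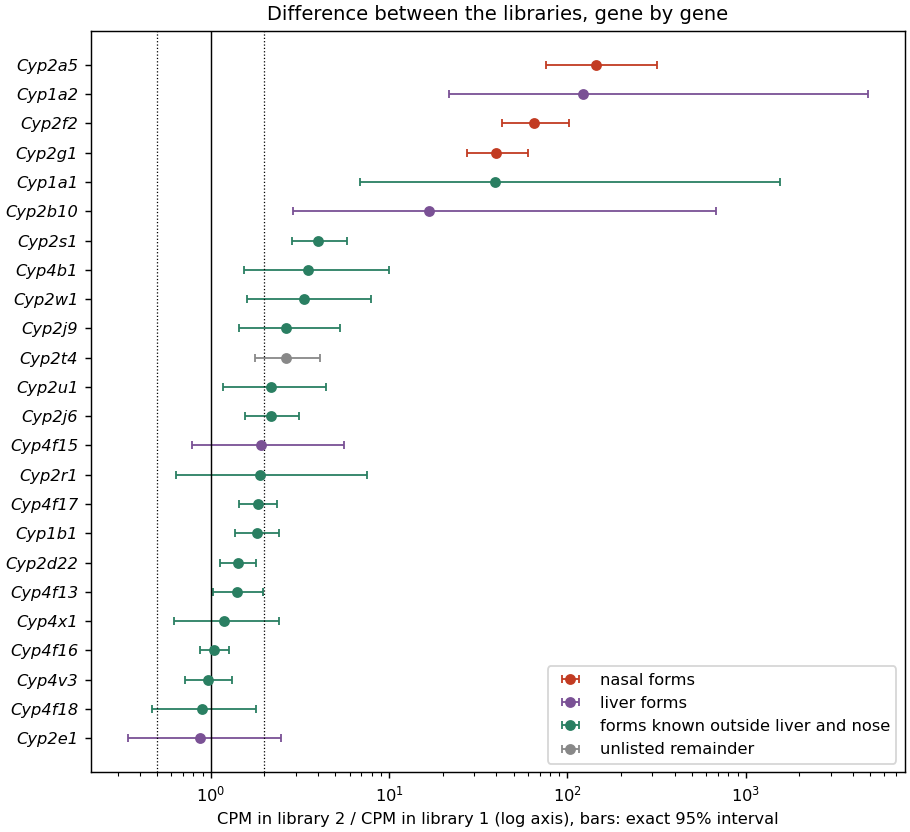
CPM in library 2 divided by CPM in library 1 (log x axis) for the 24 members with a mean of 1 CPM or more, with exact 95% intervals as bars, a solid line at 1 and dotted lines at 2-fold either way, coloured by gene list. The top 6 genes lie from 16.8 to 145, and the bars of Cyp1a2, Cyp1a1 and Cyp2b10 are long because library 1 holds 1 read of each.

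The 3 leading nasal forms are neighbours in the genome. On mm10 chromosome 7, 13 members lie between 25802469 and 27158564, a stretch of 1356 kb. In chromosome order Cyp2g1 (26808927 to 26821197), Cyp2a5 (26835339 to 26843264) and Cyp2f2 (27119955 to 27133660) stand near its far end, with Cyp2a22 and Cyp2a12 between the last pair. Cyp2a22 had no read in either library, and Cyp2a12 had 2 reads in library 1 and none in library 2. Genes with many reads and genes with none thus stood side by side. Of the 13 members of the stretch, 6 had a mean of 1 CPM or more and 7 were below 1 CPM in both libraries. All 6 were 2-fold or more higher in library 2, against 14.2% of such targets. They include the 3 leading nasal forms, already known to be higher. Together the 13 members held 15.9% of the family's summed CPM in library 1 and 78.5% in library 2. Cyp1a1 and Cyp1a2 lie side by side on chromosome 9, and 9 members, Cyp1b1 and the Cyp4f genes other than Cyp4f18, lie on chromosome 17. The 14 members on chromosome 19, all Cyp2c genes, included 0 that reached 1 CPM in both libraries, against 55.0% of all targets.

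**Figure D4:**
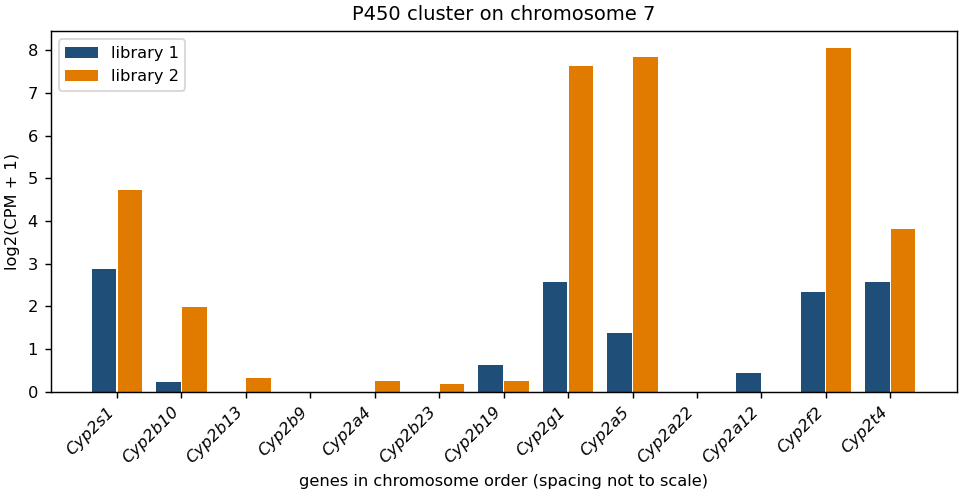
log2(CPM + 1) in library 1 and library 2 (bars from 0) of the 13 members of the P450 cluster on chromosome 7, in chromosome order without true spacing. Cyp2g1, Cyp2a5 and Cyp2f2 stand highest in library 2 at 196, 230.0 and 264 CPM, and Cyp2a22 between them has no read.

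The partners of the enzymes were expressed throughout. All 8 genes of electron transfer and haem handling reached 1 CPM in both libraries, led by Cyb5r3 at 178 and 205 CPM and Pgrmc1 at 88.1 and 182 CPM. Por stood at 37.3 and 229 CPM, 6.14-fold higher in library 2 (5.34 to 7.09), the largest fold of this list. Pgrmc1, a haem-binding P450 partner, was 2.07-fold higher, and the other 6 differed by less than 2-fold. Of 9 sensing receptors and regulators, 7 reached 1 CPM in both libraries, led by Rxra at 211 and 326 CPM, Arnt at 75.9 and 40.2 CPM and Keap1 at 24.2 and 51.1 CPM. Keap1 alone of these 7 was 2-fold or more higher in library 2, and none were so in library 1. The liver receptors of foreign compounds were near the limit, with Nr1i2 at 0 and 8 reads and Nr1i3 at 2 reads and 1 read.

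Of 25 listed enzymes of conjugation and other steps beside P450, 21 had a target used here, and Ugt2a1 and Ugt2a2, conjugating enzymes of the olfactory mucosa, were not among them. In both libraries 16 of 21 reached 1 CPM, against 55.0% of all targets. They were led by the glutathione transferases Gstm2 at 92.0 and 106 CPM, Gstm1 at 56.2 and 125 CPM and Gstm5 at 67.5 and 74.2 CPM. Of the 18 with a mean of 1 CPM or more, 7 were 2-fold or more higher in library 2 and none were so in library 1. Over all such targets the shares were 14.2% and 9.80%. The 7 are named because of their values. The sulfotransferase Sult1c1 stood at 3.00 and 109.8 CPM, a 36.6-fold difference (22.8 to 62.9). Sult1d1 and Sult1e1, of the same enzyme class, had 1 read each in library 1 and reached 11.3 and 8.29 CPM in library 2. These genes passed the limit on the mean only through library 2. Aldh3a1, Fmo5, Nqo1 and Gstm1 were 7.65-fold, 6.24-fold, 5.19-fold and 2.23-fold higher.

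Markers of nose and liver also differed between the libraries. Of 12 olfactory neuron genes, 11 had a mean of 1 CPM or more. Of these 11, 9 were 2-fold or more higher in library 2, against 14.2% of such targets. Among the 9, Rtp1, Rtp2, Cnga4, Ano2 and Gng13 had at most 2 reads in library 1. They passed the limit on the mean only through library 2. The highest of the list were Omp at 11.1 and 247 CPM, Adcy3 at 72.9 and 145 CPM and Ric8b at 40.3 and 40.2 CPM. The list summed to 138 and 625 CPM, and Cngb1 was at 0 in both. Of 10 measured genes of olfactory supporting cells and glands, 9 had a mean of 1 CPM or more. All 9 were 2-fold or more higher in library 2, led by Ltf, Sox9 and Obp2a, against 14.2% of such targets. Of the 9, Obp2a, Reg3g, Muc5b, Obp1a, Obp2b and Bpifb3 had at most 2 reads in library 1. They passed the limit on the mean only through library 2, so their direction was fixed by that limit. Obp2a, an odorant-binding protein, had no read in library 1 and 86.2 CPM in library 2. This list summed to 124 and 595 CPM, and Ltf and Sox9 are also expressed in neutrophils and cartilage. Of 10 airway genes, 7 had a mean of 1 CPM or more, and 6 of these 7 were 2-fold or more higher in library 2. Among the 6, Dnah5, Muc5ac and Rsph1 were below 1 CPM in library 1 and passed the limit only through library 2. The list was led by Bpifa1 at 50.7 and 226 CPM, Dnah5 and Foxj1, while the club cell genes Scgb1a1 and Scgb3a2 were at 0 in both libraries. Lung alveolar genes, led by Ager, Sftpc and Sftpa1, did not exceed 1.59 CPM in either library, and Sftpb was at 0 in both.

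Hepatocyte genes moved the other way. Of 12 measured, 6 had a mean of 1 CPM or more. Of these 6, 5 were 2-fold or more higher in library 1 and none in library 2. Over all targets with such a mean, the shares were 9.80% higher in library 1 and 14.2% higher in library 2. Among the 5, Alb, Ahsg and Apoc3 were below 1 CPM in library 2 and passed the limit only through library 1. The rest of the 12 were below that mean and were not compared. The list summed to 84.6 and 7.97 CPM, whereas the 34 liver forms summed to 10.8 and 31.1 CPM, mostly Cyp1a2 in library 2. Of the hepatocyte genes Ttr, which meninges and choroid plexus also make, led at 62.7 and 4.62 CPM. Apoa2 followed at 5.47 and 1.14 CPM and Alb at 5.83 and 0.316 CPM. Of 5 hepatocyte genes there was no read in library 2. Keratinocyte genes, led by Krt15, Krt5 and Krt14, summed to 93.1 and 88.4 CPM, but of the 5 with a mean of 1 CPM or more 3 were 2-fold or more higher in library 1 and 1 in library 2. Krt1 stood at 19.1 and 0.190 CPM, Krt14 at 22.2 and 5.57 CPM and Krt5 at 19.8 and 41.4 CPM. Endothelial genes, led by Pecam1, Cdh5 and Vwf, summed to 638 and 457 CPM. Skeletal muscle genes, led by Mylpf, Acta1 and Myh8, summed to 39216 and 11878 CPM. Suture and osteoblast genes, led by Col1a1, Ibsp and Alpl, summed to 120742 and 135122 CPM, of which Col1a1 alone held 119187 and 132878 CPM. Of the 10 genes 5 were 2-fold or more higher in library 2 (Six2, Ibsp, Runx2, Sp7 and Gli1, from 2.02-fold to 4.15-fold) and none in library 1. The part that any of these cell types has in the P450 values was not tested. The reads of the 3 leading nasal forms for each read of Omp, a gene of olfactory neurons, differed between the libraries. For Cyp2a5 the ratios to Omp were 0.143 in library 1 (0.0625 to 0.289) and 0.929 in library 2 (0.888 to 0.972). For Cyp2g1 they were 0.444 (0.274 to 0.704) and 0.793 (0.756 to 0.832), and for Cyp2f2 0.365 (0.216 to 0.597) and 1.07 (1.02 to 1.11). Omp itself rose 22.2-fold toward library 2, and other neuron genes with reads ran from 0.998 (Ric8b) to 62.5 (Rtp2). Genes of supporting cells and glands that were read in library 1 ran from 2.15 (Ermn) to 247 (Muc5b, 1 read there). Whether the nasal forms kept a fixed ratio to any of these other genes was not tested, nor was the cell type that their reads came from.

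**Figure D5:**
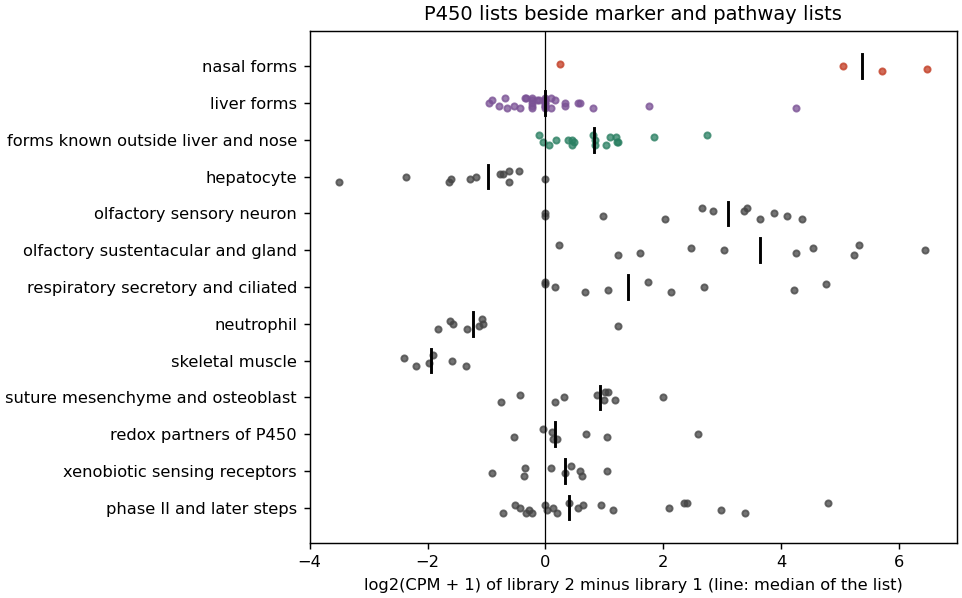
Difference between library 2 and library 1 in log2(CPM + 1) (x axis) for every gene of 3 P450 lists (coloured points) and of 10 marker and pathway lists (dark points), with the median of each list as a vertical line. Nasal forms other than Cyp2a4 and most olfactory genes lie to the right, hepatocyte and muscle genes lie to the left, and Cyp1a2 and Cyp2b10 are the 2 rightmost liver forms.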

How the data were processed

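Per the labels' protocols, total RNA of suture tissue was extracted with a column kit and amplified with a mouse Ion AmpliSeq panel, which reads 1 short amplicon per gene. The authors deposited CPM values, reads scaled to a common library total, for 23930 targets in 2 libraries. The submitters' processing notes name the build mm10. For aligner and counter: not given in the sources used here. Values above 0 were whole multiples of 0.177 CPM in library 1 and 0.0633 CPM in library 2, and 100% of values were whole within a tolerance of 0.01 reads (largest departure 0.00790), so reads were recovered. A date stood in place of 27 symbols, which were restored from the target names.

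Levels were given with the SD over 2 libraries and exact 95% Poisson intervals, and ratios with exact conditional binomial intervals (scipy 1.17.1). With 1 group, no test between conditions was possible. For the recovered reads, an exact binomial test with Benjamini-Hochberg adjustment over all targets at 0.05 was run and checked on simulated data. It called 4724 targets higher in library 2 and 3876 higher in library 1. TMM factors came from edgeR 4.0.16. Positions and promoter windows are RefSeq's (GRCm38.p6), and 76 and 61 of 76 members matched. Protein identity came from GENCODE M21 transcripts of 74 members (Biopython 1.88, global alignment). The members and lists were chosen with earlier results of these data known. Named genes were all nasal forms, all members whose mean CPM was at least 1, the 5 highest liver forms, the members next to that limit and the 3 highest genes of each further list. Others were chosen after their values were seen.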

Additional observations from a re-analysis of the deposited data

How the results depend on the processing

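The number of members at 1 CPM or more in both libraries was 20, and it ranged from 15 at 2 CPM to 23 with more than 3 reads. It was 25 in library 2 alone and 23 in library 1 alone. The 13 members that were 2-fold or more higher in library 2 stayed 13 in number with TMM or median-of-ratios scaling, which moved folds by 0.03 and 0.04 on the log2 scale, and fell to 6 with a pseudocount of 5 CPM and to 6 at a mean of 10 CPM or more. By construction both leave out or damp low genes. None were higher in library 1, against 2 in the binomial test and 10 with no filter on low values, where 0 is set at 3 reads. The log2 ratio of summed nasal to liver forms, 4.06 over both libraries, was -0.024 without library 2 and 4.47 without library 1, so it rests on library 2. It was 3.56 without near-identical members, 5.34 with Cyp1a2 and Cyp2e1 among nasal forms and, chosen after seeing the data, 5.36 without Cyp1a2 and Cyp2b10. Depth limits the low members. A read was found for 47 members in library 1 and 48 in library 2, where 40.5 would be expected at the depth of library 1. No paired analysis was possible because there is 1 group.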
